A study of Mus musculus with 4 samples.

Results

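The synaptotagmin genes Syt1, Syt4, Syt5, Syt7, Syt9, Syt11, Syt13, Syt14, Syt16 and Syt17 were followed in a pair of mouse cell lines on Affymetrix M430_2 arrays. Every probe set that the platform annotation maps to 1 of these 10 genes alone was taken, which gave 23 of the 45101 probe sets on the array, for 10 of the 18193 genes that have such a probe set. The 10 genes were chosen with the differences between these lines already known, so their levels and differences are given as a description. Their probe sets were part of the fit of all probe sets, but calls and counts of them past a threshold carry no weight as evidence. The lines were NSCL61-sox11, which is p53-/- and expresses sox11, and NSCL61, which is p53-/- without it. Both derive from neural cells of the telencephalon of C57BL/6 mouse embryos at E14.5, grown as floating spheres with PDGF and bFGF, and the labels call them neural stem cells that resemble glioma-initiating cells. Each line had 2 arrays, and NSCL61-sox11 is 1 line; the vector or promoter behind its sox11 is not stated in the labels. The submitters state that NSCL61-sox11 had lost the ability to form tumours in vivo, and the question was which genes the lines express differently.

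Synaptotagmins are membrane proteins with paired C2 domains that take part in the fusion of vesicles with the plasma membrane. Several members bind calcium through these domains and trigger SNARE-driven fusion when calcium enters the cell, while others lack the residues that bind calcium. In neurons they are best known for transmitter release, and in other cells they act on dense-core vesicles, lysosomes and membrane repair.

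Levels are the deposited log2 values of single probe sets and are compared between arrays, never between probe sets. Tests covered the brightest 60% of probe sets by mean over the 4 arrays, that is means of at least 5.15, and the other probe sets are called below the level filter. Errors beside a level are SD over 2 arrays, and errors beside a difference are limma's moderated SE. Differences are NSCL61-sox11 minus NSCL61 throughout. Arrays of 1 line were more alike (Pearson's r across 27022 probe sets, which are not independent, 0.994 in NSCL61-sox11 and 0.995 in NSCL61) than arrays of different lines (0.968 to 0.972). The labels do not say whether a line's arrays stem from separate cultures, so their spread may be technical. An exact permutation test of 2 arrays against 2 cannot go below a two-sided p of 0.333. Sox11 itself, on its brightest tested probe set, read 7.74 and 7.97 on the NSCL61-sox11 arrays. On the NSCL61 arrays it read 5.09 and 4.82, each under the filter's cut of 5.15, while its mean over the 4 arrays passed. The difference was 2.90 on this probe set and 1.65 for the mean of the tested Sox11 probe sets.

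Of the markers of neural stem cells, 8 of 10 passed the level filter, and Fabp7 and Prom1 lay below it in both lines. In the limma fit Slc1a3 was called higher in NSCL61-sox11 (difference 1.19), and Sox2 (-1.70), Pax6 (-0.45) and Vim (-0.21) were called lower. Pax6 lay close to the threshold (limma adjusted p = 0.040). Of all 13084 tested genes, 10.0% were called higher and 9.19% lower. Each marker call rests on the brightest tested probe set of its gene alone. Nes averaged 9.44 in NSCL61-sox11 and 9.39 in NSCL61. Of 12 neuron markers only 6 passed the filter, and Snap25, the SNARE partner of synaptotagmins in neurons, lay at 2.92 in NSCL61-sox11 and 2.65 in NSCL61. The mean level of those 6 was 6.45 to 6.48 on NSCL61-sox11 arrays and 7.40 to 7.52 on NSCL61 arrays, a gap carried by Nefl, which averaged 4.62 in NSCL61-sox11, below the filter, and 11.40 in NSCL61. The median difference of the 6 was 0.0088, with Tubb3 called higher (2.82-fold) and Gap43 called lower (1.86-fold). Of 8 markers of the oligodendrocyte lineage, 7 had a probe set of their own, and Olig1, Olig2 and Mog lay below the filter. The 4 that passed had a mean level of 7.38 to 7.48 on NSCL61-sox11 arrays and 7.01 to 7.08 on NSCL61 arrays. Among these 4, Pdgfra, the alpha receptor for PDGF, averaged 10.07 in NSCL61-sox11 and 8.16 in NSCL61 and was called higher. The gap between those list means was carried by Pdgfra. Cspg4 (-0.066), Sox10 (-0.20) and Mbp (-0.11) were slightly lower in NSCL61-sox11 and were not called, and the median difference of the 4 was -0.089. Of 6 astrocyte markers 5 passed, at 6.71 to 6.76 in NSCL61-sox11 and 6.84 to 6.92 in NSCL61, with differences of -0.32 to 0.083. Of 6 endocrine cell markers 5 had a probe set of their own and 3 passed, at 7.88 to 7.93 in NSCL61-sox11 and 7.91 to 7.93 in NSCL61. The part of these markers in the synaptotagmin differences was not tested.

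The synaptotagmins split by gene. Syt14, Syt13 and Syt7 were lower in NSCL61-sox11 on each of their probe sets, and Syt1 was higher on its only probe set past the filter. Syt17 read higher on both of its probe sets, by 0.51 and 0.24, but neither was called. Syt5 and Syt11 overlapped between the lines. Of the 23 probe sets, 16 passed the level filter, from 7 genes; the probe sets of Syt4, Syt9 and Syt16 and 3 of the 4 of Syt1 did not. In the limma fit over all tested probe sets, 1 of these 16 was called higher and 7 lower at an adjusted p under 0.05, where 8.99% and 8.32% of all tested probe sets were called, 17.3% in all. Since the genes were chosen on this contrast, nothing is read from that count. The 7 lower probe sets belong to 3 genes, and 4 of them report Syt7 alone. With arrays scaled to the poly-A or to the hybridisation controls, which moves the median of all tested probe sets to -0.42 or -0.24, 0 of the 16 were called higher and the 7 lower ones remained, where 558 of all probe sets were called higher and 1995 lower, or 1242 higher and 4656 lower. Without NSCL61 array 1 the count was 4, all lower, where 6.07% of all probe sets were called, 941 higher and 698 lower. Without NSCL61 array 2 it was 5, all lower, where 6.29% were called, 1133 higher and 568 lower. Without a level filter the median difference was -0.12 over the 23 probe sets and -0.022 over all 45037 probe sets that are not controls. In RNA from whole cultures, fewer cells that express a gene and less RNA per cell cannot be told apart. On none of the 16 did the mean of either line fall below the filter, the lowest being 5.24.

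**Figure D1:**
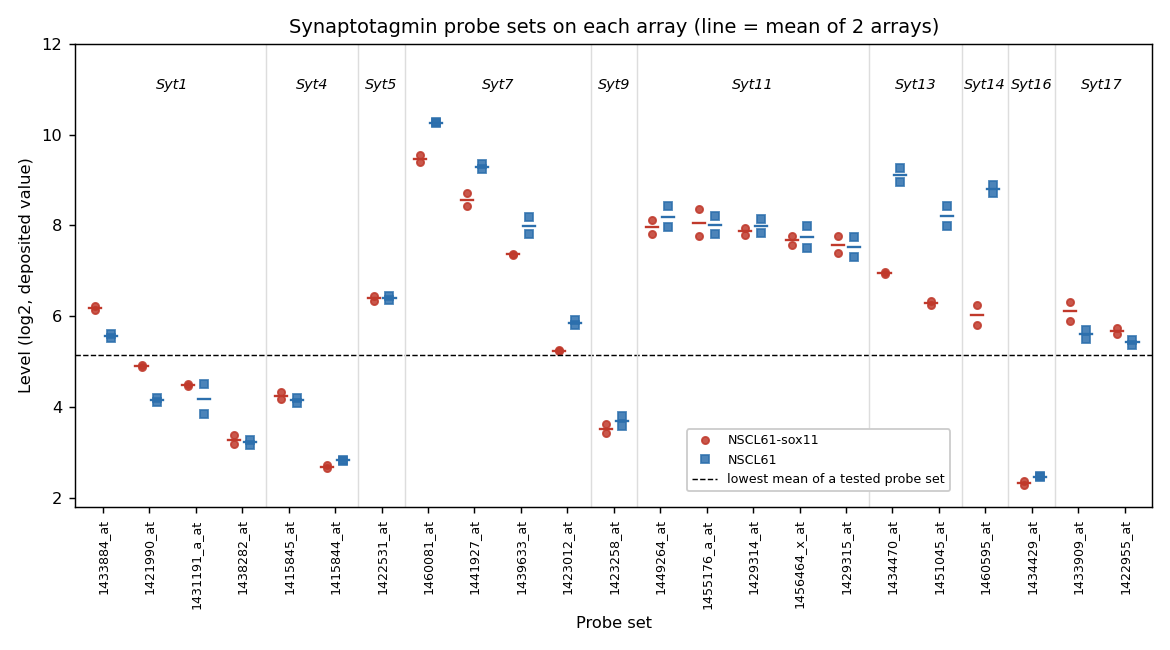
Deposited log2 level (vertical axis) of each of the 23 synaptotagmin probe sets (horizontal axis, grouped by gene) on the 2 NSCL61-sox11 arrays (circles) and the 2 NSCL61 arrays (squares), with the line's mean as a bar. The pairs of Syt7, Syt13 and Syt14 stand apart with NSCL61-sox11 below, those of Syt11 and Syt5 overlap, and Syt4, Syt9 and Syt16 lie below the dashed line at 5.15.

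The largest difference was that of Syt14, a synaptotagmin that does not bind calcium and whose cellular role is little defined. Its single probe set, 1460595_at, read 5.81 and 6.25 on the NSCL61-sox11 arrays, against 8.72 and 8.89 on the NSCL61 arrays. The lines did not overlap, and the closest arrays of different lines were 2.47 log2 units apart, while arrays of 1 line differed by 0.44 in NSCL61-sox11 and 0.17 in NSCL61. The means of 6.03 ± 0.31 and 8.81 ± 0.12 (SD, n = 2 each) gave a difference of -2.78 (SE 0.16), a 6.85-fold lower level. The difference was -3.00 to -2.55 when each array was left out in turn.

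Syt13, another member that does not bind calcium and is known from endocrine pancreas development in mice, had 2 probe sets that moved alike. On 1434470_at the NSCL61-sox11 arrays read 6.92 and 6.97, against 8.97 and 9.28 on the NSCL61 arrays. On 1451045_at they read 6.25 and 6.34, against 7.99 and 8.42. Every NSCL61-sox11 array lay below every NSCL61 array on both, by at least 1.65 log2 units. The differences were -2.18 (SE 0.12), or 4.52-fold lower, and -1.91 (SE 0.15), or 3.76-fold lower. Syt16, the closest relative of Syt14 in this group, lay far below the level filter. Its probe set 1434429_at read 2.36 and 2.28 in NSCL61-sox11 and 2.45 and 2.47 in NSCL61.

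Among the calcium-binding members, Syt7 is a high-affinity sensor that acts in lysosome exocytosis, membrane repair and slow transmitter release. Its 4 probe sets all passed the filter, and all were lower in NSCL61-sox11. On the probe set with the largest difference, 1460081_at, the level was 9.39 and 9.54 on the NSCL61-sox11 arrays, against 10.25 and 10.27 on the NSCL61 arrays. On 1441927_at it was 8.43 and 8.71, against 9.35 and 9.23. The arrays of the lines did not overlap on either. On 1439633_at the NSCL61-sox11 arrays read 7.38 and 7.34, and the NSCL61 arrays 8.18 and 7.81. On 1423012_at, where both lines lay near the filter, they read 5.23 and 5.24 in NSCL61-sox11, against 5.90 and 5.80 in NSCL61. The 4 differences were close to each other, -0.79 (SE 0.086), -0.72 (SE 0.12), -0.64 (SE 0.14) and -0.61 (SE 0.10), or 1.73-fold to 1.53-fold lower. These probe sets report the same gene and are not independent of each other. With single arrays left out the 4 differences lay between -0.87 and -0.45. The lower calls lost without NSCL61 array 1 were those of 1441927_at, 1439633_at and 1423012_at. Those lost without NSCL61 array 2 were 1441927_at and 1423012_at.

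Syt1, the sensor of fast synchronous transmitter release in the forebrain, differed in the other direction and at low levels. Its probe set past the filter, 1433884_at, read 6.14 and 6.22 on the NSCL61-sox11 arrays, against 5.60 and 5.52 on the NSCL61 arrays, a difference of 0.62 (SE 0.10), or 1.53-fold higher. On 1421990_at, below the filter, the values were 4.87 and 4.92, against 4.11 and 4.19, a difference of 0.75 (SE 0.11) in a fit of all probe sets. The lines did not overlap on these probe sets and did on the remaining pair. On 1431191_a_at NSCL61-sox11 read 4.51 and 4.45 and NSCL61 4.50 and 3.84, and on 1438282_at NSCL61-sox11 read 3.17 and 3.38 and NSCL61 3.16 and 3.27. The difference on 1433884_at was 0.40 with arrays scaled to the hybridisation controls, 0.21 with poly-A controls, and 0.58 to 0.65 with single arrays left out.

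The remaining calcium-binding members showed no separation. Syt5, found on dense-core vesicles, read 6.45 and 6.34 in NSCL61-sox11 and 6.45 and 6.35 in NSCL61, a difference of -0.0069 with a 95% interval of -0.26 to 0.24. The difference was -0.41 with arrays scaled to poly-A controls and -0.22 with hybridisation controls. Syt9, which serves release in some neurons and secretory cells, lay below the filter at 3.42 and 3.62 in NSCL61-sox11 and 3.80 and 3.57 in NSCL61. The lines overlapped for both genes.

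Syt4 and Syt11 form a closely related pair whose first C2 domain carries a substitution at a calcium-binding position. Syt11, which restrains membrane retrieval, passed the filter on all 5 probe sets. Its levels ranged from 7.38 to 8.35 on NSCL61-sox11 arrays and from 7.31 to 8.43 on NSCL61 arrays, and the lines overlapped on each probe set. The differences ran from -0.23 to 0.055, with SE of 0.13 to 0.22. The 95% interval on 1449264_at, the probe set with the largest difference, was -0.66 to 0.20. A change of the size seen for Syt13 or Syt14 lies outside it. Of the Syt7 differences, -0.64 and -0.61 lie inside it and -0.79 and -0.72 outside. Array 2 read above array 1 in both lines on 5 of 5 probe sets, by 0.16 to 0.60, and each of these gaps exceeds 4 of the 5 differences between the lines in size. With arrays scaled to poly-A controls the Syt11 differences ran from -0.63 to -0.35, where the median of all tested probe sets was -0.42. With hybridisation controls they ran from -0.45 to -0.16, where that median was -0.24. Syt4, a protein of dense-core vesicles, was below the filter on both probe sets, at 4.33 and 4.16 in NSCL61-sox11 against 4.08 and 4.20 in NSCL61 on 1415845_at, and at 2.72 and 2.64 against 2.82 and 2.82 on 1415844_at.

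Syt17, also called B/K protein, is attached to membranes by lipid anchors in place of a membrane-spanning segment. On 1433909_at it read 5.90 and 6.32 in NSCL61-sox11, against 5.69 and 5.50 in NSCL61, and on 1422955_at 5.73 and 5.60, against 5.37 and 5.47. Both NSCL61-sox11 arrays lay above both NSCL61 arrays on each probe set. The differences were 0.51 (SE 0.16) and 0.24 (SE 0.11). The first was 0.72 when array 1 of NSCL61-sox11 was left out, and 0.30 when its array 2 was. Separation of this kind was frequent: the arrays of the lines did not overlap on 60.5% of all tested probe sets, and on 10 of the 16 synaptotagmin probe sets. With arrays scaled to poly-A controls the differences were 0.11 and -0.16.

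**Figure D2:**
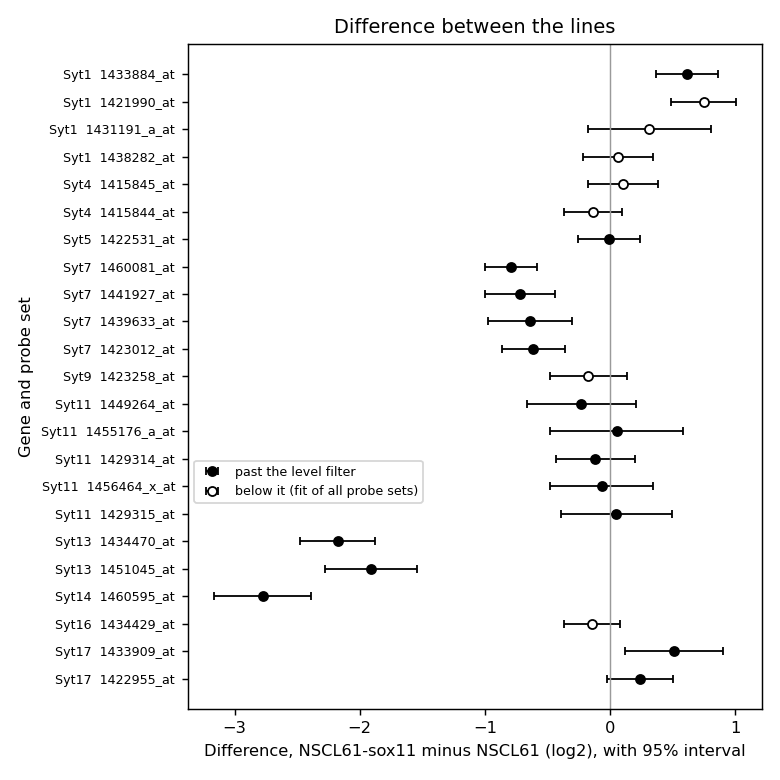
Difference between NSCL61-sox11 and NSCL61 (horizontal axis, log2) for each synaptotagmin probe set (vertical axis), with a 95% interval from limma's moderated SE. Points are filled for probe sets past the level filter and open for those below it. Open points take their SE from the fit of all probe sets and the degrees of freedom from the filtered fit. Syt14 at -2.78 and Syt13 at -2.18 and -1.91 lie farthest left, the 4 Syt7 probe sets lie between -0.79 and -0.61, and the Syt11 intervals all include 0.

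**Figure D3:**
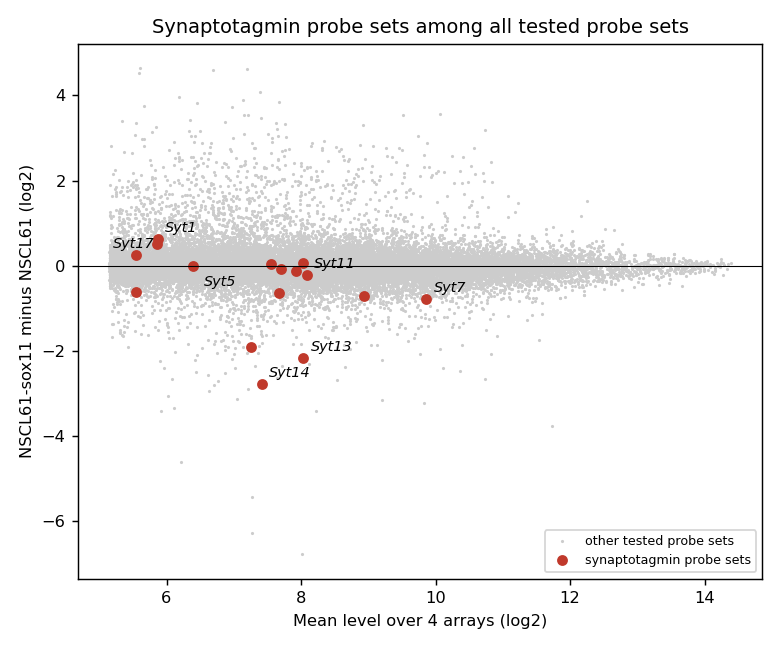
Difference between NSCL61-sox11 and NSCL61 (vertical axis, log2) against the mean level over 4 arrays (horizontal axis, log2) for the 27022 tested probe sets, with the 16 synaptotagmin probe sets as large points and 1 label per gene. Syt13 and Syt14 lie below most other probe sets of like mean level, while Syt5 and Syt11 lie within the main band.

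The start regions of Syt14, which had the largest difference, and of Syt1, which was higher, are shown because Sox11 is a DNA-binding factor and the lines differ by it. The sequences are those of RefSeq on GRCm38.p6, from 250 bases before to 50 bases after an annotated start, written 5′ to 3′ on the gene's strand, and such windows were at hand for 5 of the 10 genes (Syt1, Syt9, Syt11, Syt14 and Syt16). They were searched on both strands for AACAAT and AACAAAG, core sequences bound by Sox proteins, which do not overlap each other here and are printed in capitals where found.
Syt14 (chr1:193035726-193036025, minus strand): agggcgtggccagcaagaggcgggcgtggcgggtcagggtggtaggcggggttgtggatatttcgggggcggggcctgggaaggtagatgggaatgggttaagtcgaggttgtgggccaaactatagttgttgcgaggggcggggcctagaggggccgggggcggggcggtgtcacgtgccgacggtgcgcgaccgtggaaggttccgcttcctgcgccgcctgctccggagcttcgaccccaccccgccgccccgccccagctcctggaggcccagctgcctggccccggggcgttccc
Syt1, outer start (chr10:109010926-109011225, minus strand): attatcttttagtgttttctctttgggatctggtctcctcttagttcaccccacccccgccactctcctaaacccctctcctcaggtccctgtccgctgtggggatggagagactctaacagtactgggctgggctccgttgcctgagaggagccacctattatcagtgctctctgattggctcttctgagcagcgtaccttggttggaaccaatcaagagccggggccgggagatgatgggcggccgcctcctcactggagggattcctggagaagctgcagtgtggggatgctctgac
Syt1, inner start (chr10:109009062-109009361, minus strand): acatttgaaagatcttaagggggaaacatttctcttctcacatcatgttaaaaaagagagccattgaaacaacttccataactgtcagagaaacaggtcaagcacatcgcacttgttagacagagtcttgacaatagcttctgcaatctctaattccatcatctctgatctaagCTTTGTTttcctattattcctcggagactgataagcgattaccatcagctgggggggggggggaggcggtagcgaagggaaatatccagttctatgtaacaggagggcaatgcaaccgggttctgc

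The Syt14 window held neither sequence. It had 29 CG dinucleotides, against a median of 7 and an upper quartile of 20 over the 32851 windows searched. The windows of Syt9 and Syt16, genes below the level filter, had more, 49 and 42. That of Syt11 had 14, and the outer and inner Syt1 windows had 8 and 6. The inner Syt1 window held 1 match, AACAAAG on the opposite strand, beginning 76 bases before the annotated start, and the outer one held none. Of all windows, 10.7% held AACAAT, 5.85% held AACAAAG and 15.7% held at least 1 of them. Of the 6 windows of the 5 genes, 1 held a match. A match is a run of letters and does not show binding, and windows without one say nothing of Sox11.

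The nearest patterns to Syt14 among 13083 other tested genes, each by its brightest probe set, were those of Rhox5, Npl and Mtmr7. Their root mean square distances from Syt14, after taking off each gene's own mean over the 4 arrays, were 0.098, 0.11 and 0.16 log2 units. Rhox5, a homeobox gene, read 9.25 and 9.56 in NSCL61-sox11, against 12.06 and 12.06 in NSCL61. For the Syt1 probe set 1433884_at the nearest were Samd14, Suox and Mfhas1, at 0.017, 0.026 and 0.028. With 4 arrays such likeness mostly reflects the difference between the lines.

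The other synaptotagmins on the array gave 1 difference past the test. Syt12, a calcium-independent member of synaptic vesicles, read 7.64 and 7.60 in NSCL61-sox11, against 7.26 and 7.06 in NSCL61, and rose by 0.46 (SE 0.11, limma adjusted p = 0.033). It was called under 6 of 13 alternatives, and the adjusted p was 0.89 with poly-A scaling. The call was lost when any single array was left out (adjusted p = 0.056 to 0.19). Syt3, Syt6 and Syt8 passed the filter on 1 probe set each and were not called, with differences of -0.10, 0.089 and -0.015. Syt2, the sensor of fast release in the hindbrain and spinal cord, and Syt10, which acts in IGF-1 secretion, lay below the filter. Syt15 was not analysed here.

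Genes of vesicle exocytosis were counted beside the synaptotagmins, with the shares of all tested genes given for comparison. Together with the other synaptotagmins, 106 genes were listed, 100 had a probe set of their own, and 71 were tested. Of these 71, 3 rose, 9 fell and 59 did not pass. These are 4.23% higher and 12.7% lower, where 10.0% of all 13084 tested genes were called higher and 9.19% lower. The shares were not tested against each other, and nothing is read from them. With no level filter 4 rose and 8 fell. With poly-A scaling 0 rose and 8 fell, with hybridisation control scaling 1 rose and 17 fell, and without NSCL61 array 1 or array 2 the totals were 4 and 6 genes. The median difference was -0.047 over the 71 genes and -0.019 over all genes tested.

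Of 13 tested relatives with C2 domains or of the rabphilin group, none rose, 3 fell and 10 did not pass (median -0.13). Mctp1, below the filter by its mean over the 4 arrays, averaged 5.34 in NSCL61-sox11 and 4.39 in NSCL61. In a fit of all probe sets its difference was 0.95 (limma adjusted p = 0.035). Also below the filter, and not past the threshold in that fit, were Sytl4 (0.0047), Doc2b (-0.25), Esyt3 (-0.16) and Tc2n (-0.092). Rph3al, a Rab effector related to rabphilin that itself has no C2 domain, read 6.59 and 6.91 in NSCL61-sox11, against 7.54 and 7.59 in NSCL61, and fell 1.76-fold (limma adjusted p = 0.0092). On its second tested probe set the difference was -0.23 (adjusted p = 0.26). Esyt2 and Esyt1, extended synaptotagmins that tether the endoplasmic reticulum to the plasma membrane, fell by 0.72 (adjusted p = 0.0028) and 0.42 (adjusted p = 0.040) on the log2 scale. On the second tested probe set of Esyt2 the difference was -0.11 (adjusted p = 0.52). Rph3al did not pass when either NSCL61 array was left out (adjusted p = 0.056 and 0.063), nor did Esyt1 (adjusted p = 0.16 and 0.20). Esyt1 also missed the threshold when NSCL61-sox11 array 1 was left out (adjusted p = 0.10).

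Of 24 tested genes of the fusion machinery, 2 rose, 2 fell and 20 did not pass (median -0.036). Vamp7, the SNARE of late endosomes and lysosomes that works with Syt7 in lysosome exocytosis, read 10.06 and 10.31 in NSCL61-sox11, against 9.36 and 9.45 in NSCL61, and rose by 0.78 (limma adjusted p = 0.0058). Its second probe set rose by 0.66 (adjusted p = 0.0085). Vamp8, another SNARE of the endosomal system, rose by 0.66 (adjusted p = 0.0054). Stxbp6, which binds SNAREs and is also called amisyn, and Vamp3, the SNARE of recycling endosomes, fell by 0.77 (adjusted p = 0.016) and 0.44 (adjusted p = 0.0087) on the log2 scale. The second tested probe set of Stxbp6 gave -0.38 (adjusted p = 0.19), and the other 3 of Vamp3 gave -0.45, -0.43 and -0.30 (adjusted p = 0.014, 0.013 and 0.049). Without NSCL61 array 1 none of these 4 genes was called (adjusted p = 0.054 to 0.11), and Vamp3 was not called without NSCL61 array 2 either (adjusted p = 0.073). With poly-A scaling neither rise was called, at 0.37 for Vamp7 (adjusted p = 0.31) and 0.26 for Vamp8 (adjusted p = 0.49). With hybridisation control scaling Vamp7 was called, at 0.56 (adjusted p = 0.011), and Vamp8 was not, at 0.44 (adjusted p = 0.062).

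Of 15 tested genes of priming and tethering, none rose, 3 fell and 12 did not pass (median -0.064). Erc2, a scaffold of the active zone also called CAST, had the largest difference of these lists. It read 5.00 and 5.48 in NSCL61-sox11, against 6.78 and 7.12 in NSCL61, a 3.26-fold fall (log2 difference -1.71, SE 0.19, limma adjusted p = 0.0028). Rims2, a Rab3 effector that binds Erc proteins, fell by 0.53 on its brightest probe set (adjusted p = 0.043). Its other 3 tested probe sets did not pass, with differences of -0.63, -0.40 and -0.082 (adjusted p = 0.073, 0.15 and 0.69), nor did the mean of all 4 (-0.41, adjusted p = 0.070). On the brightest one the difference was -0.36 without NSCL61 array 2 (adjusted p = 0.19) and stayed at -0.53 without either NSCL61-sox11 array (adjusted p = 0.076 and 0.078) or with no level filter (adjusted p = 0.053). Ppfia1, a liprin, fell on both of its probe sets, by 0.41 (adjusted p = 0.030) and 0.53 (adjusted p = 0.027). Its brightest probe set did not pass when either NSCL61 array (adjusted p = 0.11 and 0.20) or NSCL61-sox11 array 2 (adjusted p = 0.065) was left out. Of 15 tested vesicle membrane proteins, Syngr1, a synaptogyrin, fell 2.07-fold, at 6.51 and 6.66 in NSCL61-sox11 against 7.53 and 7.74 in NSCL61 (limma adjusted p = 0.0026). Its second tested probe set gave -0.23 (adjusted p = 0.20). The other 14 did not pass, and none rose. Erc2, Syngr1 and Esyt2 were called under every alternative that tested them.

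**Figure D4:**
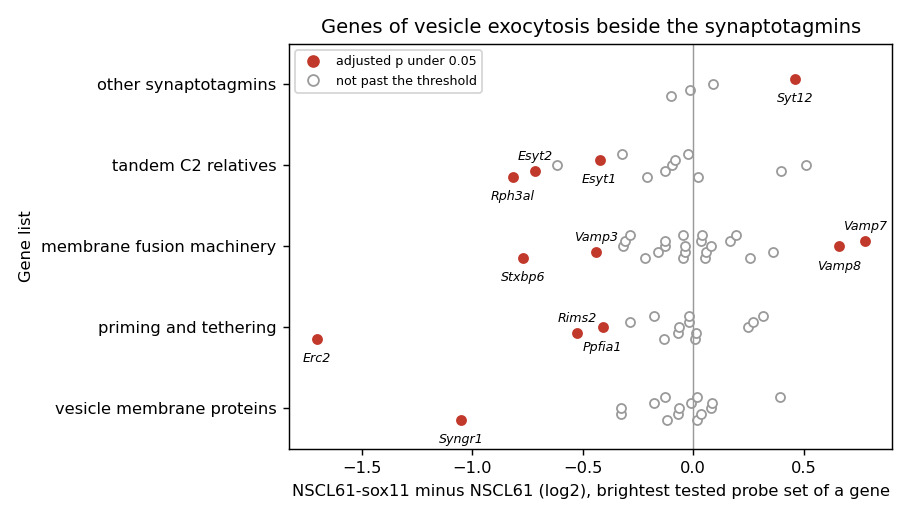
Difference between NSCL61-sox11 and NSCL61 (horizontal axis, log2) of each tested gene, by its brightest probe set, in 5 lists (vertical axis; points are spread within a row only for legibility), filled where the limma adjusted p is under 0.05. Erc2 at -1.71 and Syngr1 at -1.05 lie farthest left, Vamp7 and Vamp8 are the called genes on the right beside Syt12, and most genes lie near 0.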

How the data were processed

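Column-purified total RNA was amplified with biotin labelling and read on Affymetrix M430_2 arrays, 1 per sample, per the labels' protocols. The authors deposited 1 processed value per probe set, read here as log2 because the values run from 2.13 to 14.62; the log base is inferred, and the summarisation and normalization behind it are not stated. They were used without further scaling. Probe sets were named from GEO's platform annotation: 34945 have 1 symbol, 932 several, 9160 none here, and 64 controls were left out. Genes were represented by their brightest tested probe set, except the 10 synaptotagmins, for which every probe set is given.

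NSCL61-sox11 was tested against NSCL61 on 27022 probe sets in R 4.3.3 by limma 3.58.1 (lmFit; eBayes with trend; two-sided), with Benjamini-Hochberg adjustment over all of them and a threshold of 0.05. The fit has 2 residual degrees of freedom, 6.36 after moderation. A second fit without the filter gave SE and adjusted p for probe sets below it. Figures were drawn with matplotlib 3.10.9. The script was tested on simulated data. With 2 arrays per line, their number limits the precision.

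The members, the gene lists and the tests were chosen with earlier results of these data known. The named genes are the members, the other synaptotagmins, Sox11, up to 4 called genes of each exocytosis list with the largest differences, and the nearest patterns. Marker genes were named to describe the cells. Alternatives were quantile normalization, median centring, scaling to poly-A or hybridisation controls, other level filters, no trend, a replicate block, mean probe sets and leaving out each array.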

Additional observations from a re-analysis of the deposited data

How the results depend on the processing

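Over the alternatives run, the difference of Syt14 lay between -3.18 and -2.55. Those of the Syt13 probe sets lay between -2.58 and -2.02 and between -2.31 and -1.69. The difference of the Syt7 probe set 1460081_at lay between -1.20 and -0.72, and those of the other Syt7 probe sets between -1.12 and -0.45. With each array left out in turn, where the lone array of a line is assumed to vary like the others, 1639 to 4947 of all probe sets (4678 with all arrays), 4 to 9 synaptotagmin probe sets (8 with all arrays) and 4 to 11 other exocytosis genes (12 with all arrays) were called. Poly-A control scaling lowered the count of all probe sets to 2553, with 558 higher and 1995 lower, against 2429 and 2249 on the deposited scale; hybridisation control scaling gave 1242 and 4656. Arrays share the numbers 1 and 2 across lines, and the deviations of array 1 from its line's mean correlated between the lines (r = 0.41 across probe sets), but 2 pairs do not establish a pairing. With the replicate block 9227 probe sets, 9 synaptotagmin probe sets (Syt17 1433909_at added, as without NSCL61-sox11 array 1) and 25 other exocytosis genes were called. Among genes not called in any setting, Syt6 changed sign to -0.32 with poly-A scaling, -0.13 with hybridisation control scaling, and ran from -0.049 to 0.23 with an array left out. Syt8 ran from -0.045 to 0.014 with an array left out. Under the 8 alternatives that can move a difference, 162 of 184 synaptotagmin differences kept their sign. The cause of these changes was not tested. Values below the level filter of 5.15 carry no detection call, so their differences are the least certain.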
